A study of Mus musculus with 64 samples.

Results

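Striatal RNA of 6 N/- mice, which have 1 functional copy of Cyfip2, was set against that of 10 N/N mice, together the 16 mice of a series of 32 that made up its second sequencing set. They were chosen by mouse number (17 to 32) and by the run labels L002_F4 and L002_F7, and the counts of both runs were summed per mouse. All 16 were on the C57BL/6NJ background and 82 to 84 days old, and punches of striatum date from Day 24, directly following 5 min on an elevated plus maze. The 6 N/- mice (3 males and 3 females, from 6 cages) carried 1 N allele and 1 null allele, and the labels add the word binge-resistant. The 10 N/N mice (4 males and 6 females, from 8 cages) carried the N allele on both chromosomes and are labelled binge-prone. Mice without the N allele were not part of the comparison, so the difference is that of 1 missing copy on an N background. No diet or training group is labelled, and a treatment that differed between mice of a genotype would add to their spread. If such a treatment were uneven between the genotypes, it could also shift the difference between them. How the null allele was built and which animals were littermates are not described in the labels. The p-values below therefore measure the spread between these mice.

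Cyfip2 encodes a subunit of the WAVE regulatory complex, which holds the WAVE proteins inactive until Rac binds and then drives the branching of actin filaments by Arp2/3. In neurons this machinery shapes dendritic spines, and CYFIP proteins also bind the fragile X protein FMRP and repress translation. The N allele, found in C57BL/6N substrains, is known for a missense variant that changes responses to cocaine and to palatable food. The striatum, which serves reward and action, is built mainly of GABA-releasing projection neurons of the direct and indirect pathways, with few interneurons.

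The summed libraries held 31.31 to 33.84 M counts (M, mega counts; median 32.56), and 19660 to 20001 genes had at least 1 count in a mouse. Levels are given as CPM, counts per mega counts of a library scaled by edgeR's TMM method. At the median depth 1 CPM stood for 32.6 counts. Mitochondrial genes took 5.94% to 7.06% of the counts in N/- and 6.68% to 7.52% in N/N mice. The 22 marker genes of projection neurons summed to 15850 to 19720 CPM in N/- and 16550 to 21120 CPM in N/N mice. With no other tissue beside it, this level does not test the striatal label. By sex, 16 of 16665 genes (0.096%) passed the threshold, among them the Y-linked Uty, Kdm5d, Ddx3y, Eif2s3y and Uba1y, higher in males, and Xist, higher in females. Xist lay at 804.9 to 1500.0 CPM without TMM in the 9 females and at 1.35 to 18.4 CPM in the 7 males, and Ddx3y at 0.0627 to 1.24 and 72.5 to 93.8 CPM, so each library matched its labelled sex.

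The loss of 1 Cyfip2 copy went with few differences past the threshold. Of 16665 genes tested, 5 (0.03%) had an adjusted p under 0.05 by edgeR's quasi-likelihood test with sex as a term and Benjamini-Hochberg adjustment. Cyfip2 fell (0.006% of the genes were called lower), and En2, Pak7, Hkdc1 and Lrrc55 rose (0.024% called higher). At an unadjusted p under 0.05 stood 840 genes (5.04%), of which 501 were higher (3.01%) and 339 lower (2.03%) in N/- mice. Over all genes the median log2 fold change was -0.0040, with 47.6% of the genes above and 52.4% below 0, and the gene lists further on are read beside these shares.

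**Figure D1:**
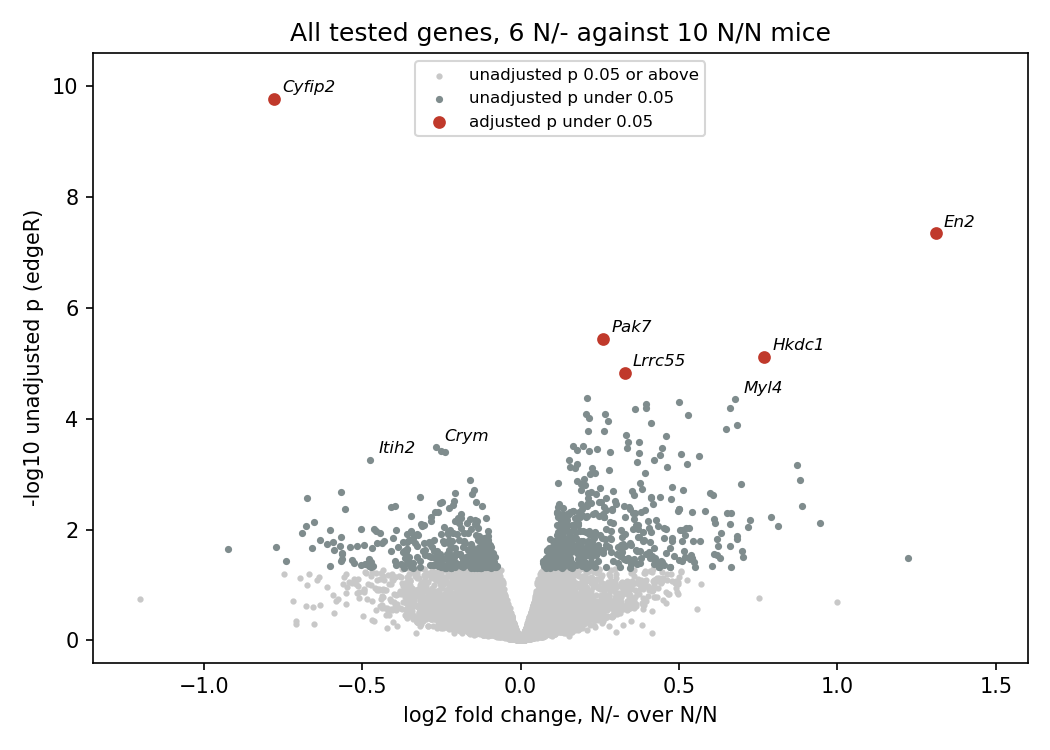
Each point is 1 of 16665 tested genes, with the log2 fold change of N/- over N/N mice (x axis) and the negative log10 of the unadjusted p from edgeR (y axis). The 5 red points passed the adjusted threshold: Cyfip2 at -0.78 stands alone on the left, and En2 at 1.31 is the farthest on the right.

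The targeted gene was read first, since it checks the labels. Cyfip2 (Entrez 76884, chromosome 11, 46193849 to 46312859, mm10) stood at 539 CPM in the lowest, 625.2 CPM in the median and 648 CPM in the highest N/- mouse. The N/N mice had 929.9 CPM at the lowest, 1043 CPM at the median and 1282 CPM at the highest. The groups were far apart: no N/- mouse reached the lowest N/N mouse, which held in this direction for 2 genes of those tested (0.012%). Expressed as a share of N/N mice, Cyfip2 was at 58.3% (95% interval 53.1% to 63.9%). Its log2 fold change was -0.78 (SE 0.06, adjusted p = 2.79e-06 by edgeR). The two-sided exact permutation p was 0.00025, the smallest that the 8008 arrangements of these mice allow, and 0.00068 within sex, again the smallest possible. Counts cover the whole gene and do not tell the N transcript from any transcript of the null allele. The N/- mouse 30, a female, was the lowest at 539 CPM while the other N/- mice lay between 620 and 648 CPM, and without it the log2 fold change was -0.74.

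En2 (Entrez 13799, chromosome 5, 28165696 to 28172190), which encodes engrailed 2, a homeobox factor that patterns the midbrain and cerebellum, had the largest difference of the genes past the threshold. It stood at 2.69, 3.15 and 3.59 CPM in the lowest, median and highest N/- mouse, or 85 to 116 counts. In N/N mice the same values were 0.684, 1.26 and 2.03 CPM, or 22 to 68 counts. No N/- mouse was as low as any N/N mouse, although the levels are low. En2 was 2.48-fold higher in N/- mice (95% interval 1.99 to 3.08), at a log2 fold change of 1.31 (SE 0.15, adjusted p = 0.000368 by edgeR). The exact permutation p equalled that of Cyfip2, the smallest possible, which any gene with groups fully apart gets. En2 was picked by its difference in these mice, so this adds no further support. Lrrc55 reached the same exact permutation p of 0.00025, and Pak7, Hkdc1 and Lrrc55 reached 0.00068 within sex. Of 17 genes listed with En2 as midbrain or hindbrain patterning factors, only 6 were tested, since the other members were under the filter on low counts. Its paralog En1 had 0 to 3 counts in each of the 16 mice. Otx1, a forebrain and midbrain homeobox gene also active in deep cortex, had a log2 fold change of 0.36 (SE 0.12, unadjusted p = 0.0064), and Gbx2 and Otx2 stood below 0 without reaching an unadjusted p under 0.05. Cassettes used for many mouse null alleles carry a splice acceptor taken from En2, and a read from such a cassette would be counted to En2. Whether this allele holds one was not tested.

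Pak7 (Entrez 241656, chromosome 2, 136081088 to 136387968), also called Pak5, encodes a brain-enriched kinase of the p21-activated family, whose members bind Rac or Cdc42 and act on the cytoskeleton. It stood at 38.8, 40.0 and 45.0 CPM in the lowest, median and highest N/- mouse and at 29.8, 34.2 and 39.3 CPM in N/N mice. The groups overlapped: N/N mouse 21 at 39.3 CPM lay above N/- mice 17 and 32 at 38.8 CPM. The fold was 1.20 (95% interval 1.13 to 1.27). In log2 units the fold change was 0.26 (SE 0.04, adjusted p = 0.0199 by edgeR).

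Hkdc1 (Entrez 216019, chromosome 10, 62383137 to 62423711) encodes a protein with hexokinase domains, the enzyme class that phosphorylates glucose. It stood at 2.92, 3.55 and 4.77 CPM in the lowest, median and highest N/- mouse and at 1.34, 2.26 and 3.08 CPM in N/N mice. N/N mouse 28 at 3.08 CPM lay above N/- mouse 23 at 2.92 CPM, and the other N/- mice lay above all N/N mice. Hkdc1 was 1.70-fold higher (95% interval 1.42 to 2.05). In log2 units the fold change was 0.77 (SE 0.13, adjusted p = 0.0317 by edgeR).

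Lrrc55 (Entrez 241528, chromosome 2, 85188067 to 85198750) encodes a leucine-rich repeat protein known as an auxiliary subunit of the BK potassium channel, which it opens at less positive voltages. It stood at 13.7, 14.3 and 15.4 CPM in the lowest, median and highest N/- mouse and at 9.55, 11.8 and 13.7 CPM in N/N mice. The groups met at the edge, where N/- mouse 25 and N/N mouse 24 had the same level to 4 digits, 13.72 CPM. Lrrc55 was 1.26-fold higher (95% interval 1.16 to 1.36). In log2 units the fold change was 0.33 (SE 0.06, adjusted p = 0.049 by edgeR).

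**Figure D2:**
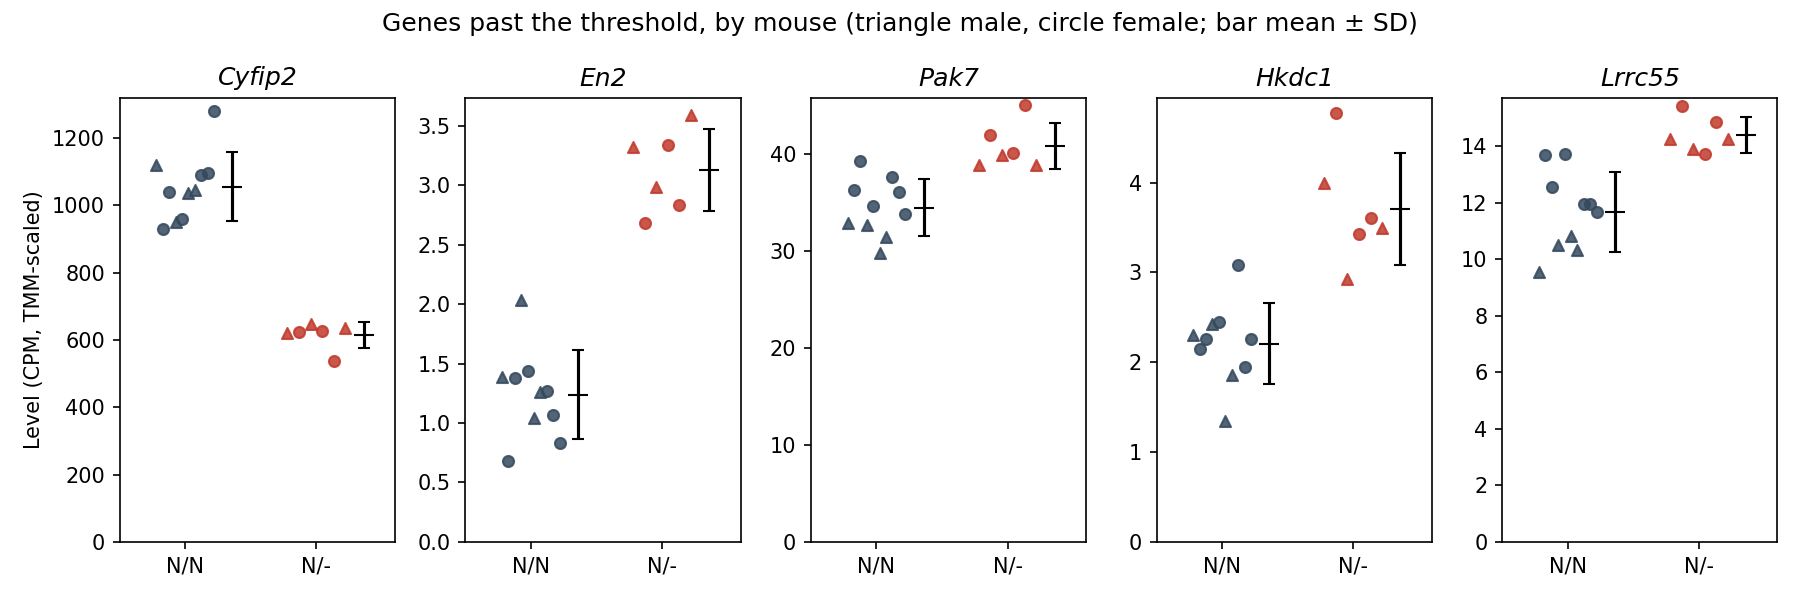
Level in CPM of the 5 genes past the threshold in each of 10 N/N and 6 N/- mice (triangles males, circles females), with the mean ± SD beside each group. All N/- mice lay below the N/N mice for Cyfip2 and above them for En2, whereas single mice of the groups overlapped for Pak7 and Hkdc1 and touched for Lrrc55.

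Cyfip2 and En2 passed with any single mouse left out, and the other 3 genes did not. Without 1 mouse in turn, Pak7 lost its call in 6, Hkdc1 in 8 and Lrrc55 in 12 of 16 fits, at an adjusted p of up to 0.0879, 0.191 and 0.226 by edgeR. The number of genes called then ran from 2 (without N/- mouse 17, 19 or 32 or N/N mouse 27) over 3 (without N/- mouse 23 or N/N mouse 29 or 31) to 11 (without N/N mouse 21). Without sex as a term 2 genes were called, Cyfip2 and En2, and DESeq2 called 49 of 15148, 45 higher and 4 lower, with all 5 genes above among them.

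The promoters of the 3 smaller calls that rose are printed because these genes moved the same way in these mice. Each is 240 bases upstream of the start used by RefSeq's table (GRCm38.p6, mm10), on the minus strand and written 5′ to 3′, and the Hkdc1 window lies inside the outer bounds of its gene. Motifs were searched on both strands and are in capitals. Pak7 at chr2:136387978-136388217, Hkdc1 at chr10:62422468-62422707 and Lrrc55 at chr2:85198761-85199000 read as follows.
Pak7: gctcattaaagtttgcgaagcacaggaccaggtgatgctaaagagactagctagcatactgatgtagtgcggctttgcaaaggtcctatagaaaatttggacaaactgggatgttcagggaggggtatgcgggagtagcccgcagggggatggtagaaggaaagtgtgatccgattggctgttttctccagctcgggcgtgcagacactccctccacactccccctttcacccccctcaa
Hkdc1: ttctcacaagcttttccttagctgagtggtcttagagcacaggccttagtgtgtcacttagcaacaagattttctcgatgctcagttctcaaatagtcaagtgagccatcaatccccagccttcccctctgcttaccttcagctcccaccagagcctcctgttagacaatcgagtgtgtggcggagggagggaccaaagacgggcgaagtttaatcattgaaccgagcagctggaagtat
Lrrc55: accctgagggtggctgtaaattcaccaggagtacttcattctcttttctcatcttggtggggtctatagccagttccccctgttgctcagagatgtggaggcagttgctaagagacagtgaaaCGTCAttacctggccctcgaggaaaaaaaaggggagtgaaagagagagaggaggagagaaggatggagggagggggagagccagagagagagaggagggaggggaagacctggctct

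Of 5 motifs searched, the Lrrc55 window held 1, CGTCA, the reverse complement of the cAMP response element core TGACG, which was present in 16.9% of 32851 windows. The Pak7 and Hkdc1 windows held none of the homeodomain core TAATTA (4.77% of windows), TGACG, the GC box GGGCGG (31.3%), TATAAA (12.1%) or the E-box CACGTG (5.69%). GC content was 52.5% for Pak7, 49.6% for Hkdc1 and 52.9% for Lrrc55, against a median of 52.1% over all windows. The windows therefore shared none of these motifs.

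Cage mates gave the same directions. They are among the mice in which the 5 genes were picked, so the directions are no independent support. In 5 cages, with 11 mice in all, both genotypes were present, and the ratio of N/- over N/N cage mates was taken as log2 of CPM plus 0.1. Cyfip2 was lower in all 5, by -1.02 to -0.55, a direction that 4.09% of all genes shared in every cage. En2 was higher in all 5 (0.53 to 1.83), as were Pak7 (0.21 to 0.29) and Hkdc1 (0.26 to 1.12), against 4.51% of all genes. Lrrc55 was higher in 4 cages (0.17 to 0.57) and level in the cage of mouse 25 (2.58e-05). Pak7 had the narrowest range over cages of the 5 genes. With cage as a block, a fit that drops the 5 mice of other cages, only Cyfip2 was called, and En2 had a log2 fold change of 1.22 (SE 0.17, adjusted p = 0.0924 by edgeR). In the same 11 mice with sex in place of cage, a fit added after seeing the data, again only Cyfip2 was called, and En2 stood at 1.20 (SE 0.18, adjusted p = 0.0981 by edgeR). With cage as a random effect in limma voom (correlation within cages 0.102), all 5 genes and Myl4 were called.

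**Figure D3:**
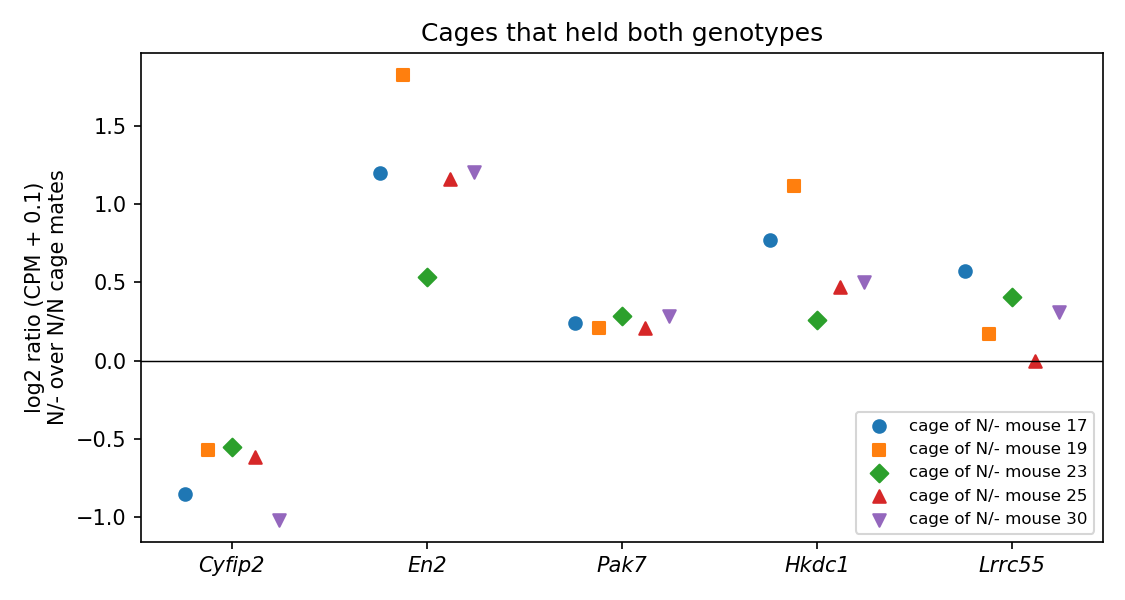
Log2 ratio of N/- over N/N cage mates (CPM plus 0.1) in each of 5 cages that held both genotypes, for the 5 genes past the threshold. All ratios of Cyfip2 lie below 0 and all of En2, Pak7 and Hkdc1 above it, while Lrrc55 is at 0 in the cage of N/- mouse 25.

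The first sequencing set, 10 N/- and 6 N/N mice with no mouse in common, gave a measure that did not enter the fit above. There 2 of 16687 genes passed (0.012%) and 5.87% had an unadjusted p under 0.05. The genes that passed were Cyfip2 at -0.91 (SE 0.06) and En2 at 1.29 (SE 0.18). Pak7 had a log2 fold change of 0.11 (SE 0.13), Lrrc55 of 0.15 (SE 0.13) and Hkdc1 of 0.61 (SE 0.50), all in the same direction, with an unadjusted p of 0.394, 0.265 and 0.236 by edgeR. The spread was wider in that set. The median SE over all genes was 0.0897, against 0.0682 here, and Hkdc1 ran from 0.461 to 11.9 CPM in its N/- mice. The difference between sets (second minus first) was 0.13 (SE 0.09, unadjusted p = 0.151 by edgeR) for Cyfip2 and 0.0054 (SE 0.26) for En2. It was 0.16 (SE 0.14) for Pak7, 0.14 (SE 0.50) for Hkdc1 and 0.19 (SE 0.16) for Lrrc55, and passed for none of these. Over 16924 genes tested for a difference of the genotype effect between sets, 0 passed in edgeR and 0 in limma voom, and 788 (4.66%) had an unadjusted p under 0.05, so a different effect in the 2 sets was not detectable for any single gene.

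Of the genes with an unadjusted p under 0.05 here, 831 had a value in the first set and 576 of them (69.3%) went the same way there, beside 52.8% of 16544 genes in all. Among the 55 with a p under 0.001, 50 went the same way. An unadjusted p under 0.05 in the first set was reached by 6.38% of the 831, close to the 5.81% of all genes. These shares describe the 2 sets of mice and were not tested.

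**Figure D4:**
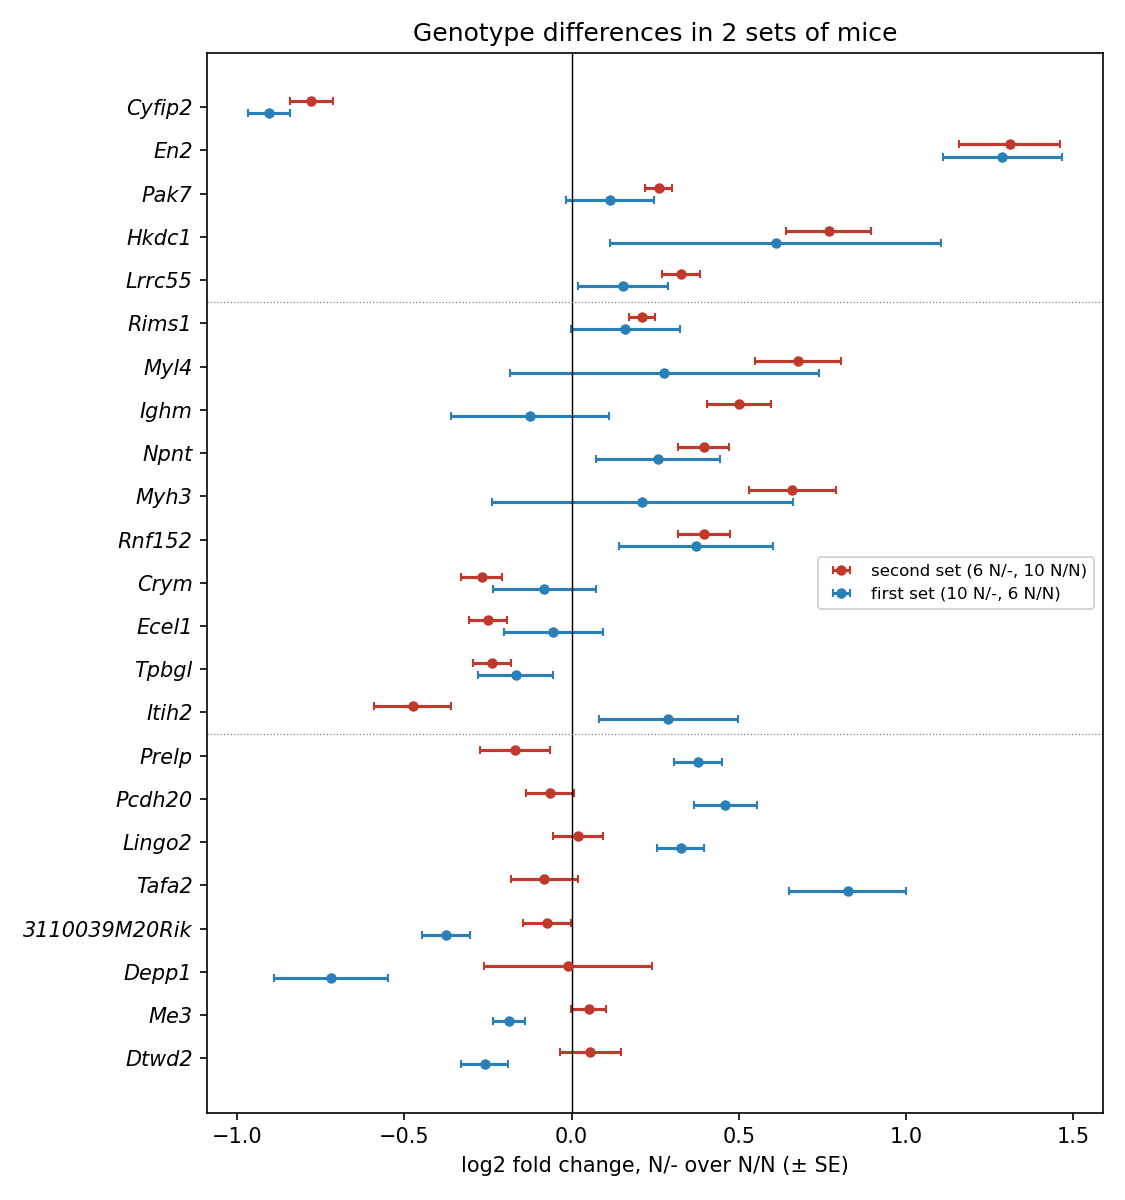
Log2 fold change of N/- over N/N (± SE) in the second set (red) and in the first set (blue), for the 5 called genes (top), 10 further genes with the smallest p in the second set (middle) and 8 genes with the smallest p in the first set (bottom). Cyfip2 lies at -0.78 here and -0.91 in the first set and En2 at 1.31 and 1.29, while 5 of the 8 genes at the bottom differ in sign between the sets.

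Taken from the other side, the genes with the smallest p in the first set besides Cyfip2 and En2, 4 in each direction, passed in neither set, and 5 of the 8 had the opposite sign here. Higher in the first set were Prelp, a proteoglycan of connective tissue, at 0.38 (SE 0.07) there and -0.17 (SE 0.11) here, and Pcdh20, a protocadherin, at 0.46 (SE 0.10) and -0.06 (SE 0.07). Tafa2, a secreted neuronal peptide, stood at 0.83 (SE 0.18) and -0.08 (SE 0.10), and Lingo2, a leucine-rich repeat membrane protein, at 0.33 (SE 0.07) and 0.02 (SE 0.07). Lower in the first set were Me3, the mitochondrial malic enzyme gene, at -0.19 (SE 0.05) there and 0.05 (SE 0.05) here, and Dtwd2 at -0.26 (SE 0.07) and 0.06 (SE 0.09). 3110039M20Rik stood at -0.38 (SE 0.07) and -0.07 (SE 0.07), and Depp1 at -0.72 (SE 0.17) and -0.01 (SE 0.25). Here all 8 lay near 0 within 2 SE, and the signs of Lingo2, Tafa2, 3110039M20Rik, Depp1 and Dtwd2 turned in some of the alternative fits. None of the differences between sets passed the adjustment over all genes.

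The genes next in order of p did not pass, and their values are given as such. Higher in N/- mice were Rims1, a scaffold of the presynaptic release site (log2 fold change 0.21, SE 0.04), Npnt, the matrix protein nephronectin (0.39, SE 0.08), and Rnf152, a lysosomal ubiquitin ligase (0.40, SE 0.08). Myl4 and Myh3, the light and heavy chain genes of embryonic myosin, stood at 0.68 (SE 0.13) and 0.66 (SE 0.13). Ighm, the constant region of the immunoglobulin M heavy chain, stood at 0.50 (SE 0.09) here and at -0.12 (SE 0.24) in the first set. All 6 had an adjusted p of 0.0917 by edgeR. Npnt ran from 5.24 to 6.71 CPM in N/- and from 3.76 to 5.01 CPM in N/N mice without overlap, which only 6 genes showed in this direction (0.036%), En2 and Lrrc55 among them. Myl4 and Ighm were also lower in males, by sex effects that passed (log2 difference of males over females -0.75 and -0.50, adjusted p = 0.0205 and 0.05 by edgeR). The lowest Myl4 levels, 2.54, 2.90 and 3.91 CPM, were those of the N/N males 26, 27 and 18. These mice also had the lowest sums of cortical markers, given further on. The part of tissue composition in these sex effects was not tested.

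Lower in N/- mice, again without passing, was Crym, which encodes the thyroid hormone binding protein mu-crystallin and is known as a marker of medial striatum. Crym stood at 118, 124 and 142 CPM in the lowest, median and highest N/- mouse and at 126, 152 and 178 CPM in N/N mice, so the groups overlapped widely. Its log2 fold change was -0.27 (SE 0.06, adjusted p = 0.181 by edgeR). Ecel1, a membrane peptidase gene, stood at -0.25 (SE 0.06), Tpbgl at -0.24 (SE 0.06) and Itih2, which stabilises hyaluronan matrix, at -0.48 (SE 0.11), against 0.29 (SE 0.21) for Itih2 in the first set. Kirrel3, a synaptic adhesion gene, stood at -0.15 (SE 0.04), Nrarp, an inhibitor of Notch signalling, at -0.21 (SE 0.06), and 1700037H04Rik at -0.16 (SE 0.04). Alpk3, a kinase-like gene under 1 CPM in every mouse, stood at -0.57 (SE 0.16). Pdcl3, a chaperone of the phosducin family, stood at -0.15 (SE 0.04), and its range of 21.3 to 23.8 CPM in N/- mice ended short of the 24.2 to 27.8 CPM of N/N mice.

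Of the genes that led an earlier comparison of all 32 mice, which included these 16, En2 passed here and those that follow did not. Gabrb2, Lsm11 and Med7, whose values are given further on, were also among them and did not pass. Epha3, an ephrin receptor gene, stood at 0.23 (SE 0.07), Napepld, which makes N-acylethanolamines, at 0.17 (SE 0.06), and the mesothelin gene Msln at 0.49 (SE 0.30). Zdhhc18, a palmitoyltransferase gene, stood at -0.11 (SE 0.04) and the exonuclease gene Trex1 at -0.11 (SE 0.05). These are the same mice in part and are no independent support.

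The partners of Cyfip2 in the WAVE complex did not pass the test. Besides Cyfip2, 0 of the other 10 members passed and none had an unadjusted p under 0.05. Cyfip1, the paralog that can replace Cyfip2 in the complex, stood at 89.0 ± 3.8 CPM (SD, n = 6) in N/- and 88.4 ± 3.1 CPM (SD, n = 10) in N/N mice, a log2 fold change of 0.0070 (SE 0.03). Nckap1, which forms the large scaffold with CYFIP, stood at 0.05 (SE 0.05) and its blood-cell form Nckap1l at 0.04 (SE 0.06). The WAVE genes Wasf1, Wasf2 and Wasf3 stood at -0.03 (SE 0.05), 0.03 (SE 0.05) and -0.04 (SE 0.04). The Abl-interactor genes Abi1, Abi2 and Abi3 stood at 0.02 (SE 0.04), 0.04 (SE 0.04) and -0.03 (SE 0.09), and the small subunit gene Brk1 at -0.04 (SE 0.05).

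Downstream of the complex, 0 of 24 genes of Rac, Arp2/3 and actin turnover passed, and their median log2 fold change was -0.03. Pak1, another kinase that Rac activates, was the only one of them with an unadjusted p under 0.05. It stood at 218 to 246 CPM in N/- and at 184 to 252 CPM in N/N mice, a log2 fold change of 0.15 (SE 0.05). Arpc5, a subunit of Arp2/3, stood at -0.08 (SE 0.04). Among 14 genes of the FMRP family and of cap-dependent translation 0 passed. Fmr1 stood at 0.06 (SE 0.04) and the helicase gene Eif4a1 at -0.09 (SE 0.04, unadjusted p = 0.042).

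Among 12 tested genes that start within 1 Mb of Cyfip2, 0 passed, and the log2 fold changes ran from -0.18 to 0.30. The largest was that of Lsm11, a part of the histone mRNA processing machinery (0.30, SE 0.09, unadjusted p = 0.0030), and Med7 of the Mediator complex stood at -0.12 (SE 0.05, unadjusted p = 0.0208).

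For the identity genes of striatal neurons no call was made. Of 22 genes of projection neurons as a whole 0 had an unadjusted p under 0.05, with 7 above and 15 below 0 and a median log2 fold change of -0.04, beside -0.0040 for all genes. Ptpn5, the striatum-enriched phosphatase STEP, stood at -0.09 (SE 0.06) and the kinase gene Dclk3 at -0.08 (SE 0.05). In the first set all 22 members lay below 0, with a median of -0.23. For direct-pathway neurons 0 of 12 genes passed and the median was -0.03. The prodynorphin gene Pdyn, an opioid peptide precursor of these cells, stood at 20.1 to 23.3 CPM in N/- and at 18.3 to 33.0 CPM in N/N mice, a log2 fold change of -0.31 (SE 0.11, unadjusted p = 0.0087). Tac1, which encodes substance P, stood at -0.15 (SE 0.07). For indirect-pathway neurons 0 of 12 passed, and members with an unadjusted p under 0.05 went both ways. Penk, the proenkephalin gene, stood at -0.15 (SE 0.07), while Grik3, a kainate receptor subunit gene, stood at 0.16 (SE 0.05) and Plxdc1 at 0.13 (SE 0.05). In bulk tissue fewer cells of a type and less RNA per cell cannot be told apart.

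Of 15 interneuron genes 0 passed and 12 lay below 0, with a median of -0.09. The acetylcholine transporter gene Slc18a3 stood at -0.27 (SE 0.08, unadjusted p = 0.0048), and Ecel1, given above, and the somatostatin gene Sst (-0.18, unadjusted p = 0.0478) were the other members on the low side under 0.05. The parvalbumin gene Pvalb stood at 0.46 (SE 0.11, unadjusted p = 0.000732) and the potassium channel gene Kcnc1 of fast-spiking cells at 0.11 (SE 0.05). Pvalb ran from 8.41 to 17.4 CPM in N/- and from 7.67 to 13.9 CPM in N/N mice, and the groups overlapped.

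**Figure D5:**
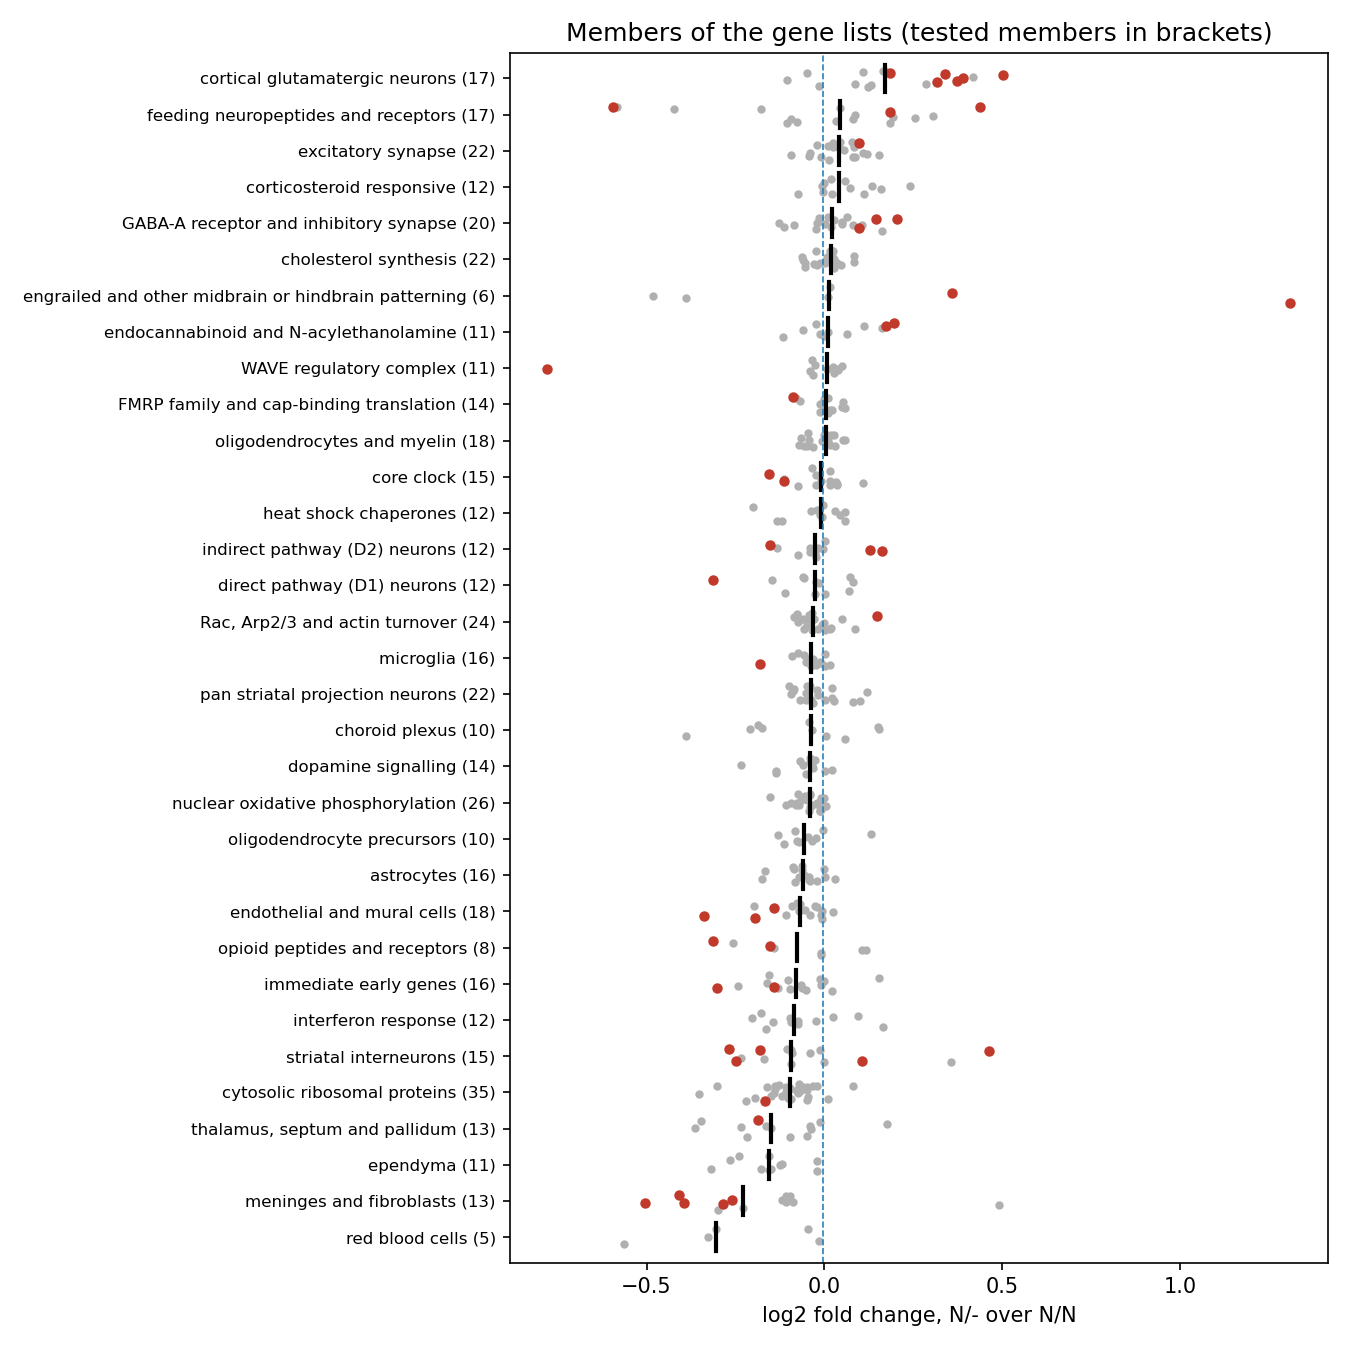
Log2 fold change of N/- over N/N for the tested members of 33 gene lists (number in brackets), with members at an unadjusted p under 0.05 in red, list medians as black bars and the median of all genes as a dashed line. Cortical glutamatergic markers have the highest median, 0.17, and red blood cell genes the lowest, -0.31.

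In transmitter signalling, 0 of 20 genes of GABA-A receptors and inhibitory synapses passed. Of these, 3 had an unadjusted p under 0.05, all higher, and the list's median was 0.02. The receptor subunit gene Gabrb2 ran from 267 to 286 CPM in N/- and from 226 to 283 CPM in N/N mice, and the groups overlapped. Its log2 fold change was 0.14 (SE 0.05) here and 0.17 (SE 0.07) in the first set. Gabrb2 was among the leading genes of the earlier comparison, which included both sets, so its first-set value is no independent support. The subunit gene Gabra3 stood at 0.16 (SE 0.08). Of 22 excitatory synapse genes 17 lay above 0, with a median of 0.04. The AMPA receptor gene Gria3 stood at 0.10 (SE 0.04) and the scaffold gene Shank3 at -0.09 (SE 0.05). Of 11 endocannabinoid genes 0 passed, and Napepld and Faah, which make and break down N-acylethanolamines, stood at 0.17 and 0.20 (SE 0.06 and 0.09). Of 14 tested dopamine genes 12 lay below 0 (median -0.04), with Ddc and Th, the enzymes of dopamine synthesis, both at -0.14 (SE 0.08 and 0.10).

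Of 17 tested feeding peptide and receptor genes 0 passed and 3 had an unadjusted p under 0.05. The melanocortin receptor gene Mc3r stood at -0.59 (SE 0.23), the neuropeptide Y receptor gene Npy1r at 0.18 (SE 0.08) and Agrp, which encodes a hunger peptide of the hypothalamus, at 0.44 (SE 0.21). Agrp stayed under 1 CPM in every mouse, and Mc3r lay at 0.579 to 1.54 CPM in N/- and 0.851 to 2.02 CPM in N/N mice. Of 16 immediate early genes 14 lay below 0 (median -0.08), with Egr4 at -0.30 (SE 0.12) and Fosb at -0.14 (SE 0.06), whereas 13 lay above 0 in the first set. Their summed level was 354 to 465 CPM in 5 N/- mice and 666 CPM in mouse 30. Of 15 core clock genes 0 passed, and Dbp and Cry1 stood at -0.11 (SE 0.05) and -0.16 (SE 0.07). The corticosteroid-responsive list had a median of 0.04, with Klf9 at 0.13 (SE 0.07).

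Of 35 tested ribosomal protein genes 33 lay below 0 (median -0.10), of which Rps2 had an unadjusted p under 0.05 (-0.17, SE 0.08), and Rplp1 stood at -0.15 (SE 0.08). Of 26 nuclear genes of oxidative phosphorylation 25 lay below 0 (median -0.04), and 0 had an unadjusted p under 0.05. Cox5b stood at -0.15 (SE 0.10) and Ndufa13 at -0.08 (SE 0.06). Neither list holds a gene that passed. In the first set 20 of the 35 ribosomal and 18 of the 26 oxidative phosphorylation genes lay above 0. The summed ribosomal level here was 1664 to 2013 CPM in N/- and 1761 to 2365 CPM in N/N mice, and the groups overlapped. The cholesterol synthesis genes had a median of 0.02, with Hsd17b7 and Lss both at 0.08 (SE 0.04 and 0.05). The chaperone list had a median of -0.0097, with Hspe1 at -0.12 (SE 0.08).

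Markers of tissue next to the striatum were read as well. Of 17 tested genes of cortical glutamatergic neurons 14 lay above 0, and their median of 0.17 was the highest of the lists, with 0.28 in the first set. An unadjusted p under 0.05 was reached by 6, all higher, against 3.01% of all genes. The leading ones were Tshz3, a zinc finger factor (0.34, SE 0.08), Nrn1, the growth factor neuritin (0.50, SE 0.15), Mef2c (0.18, SE 0.06) and the cortical identity factor Tbr1 (0.37, SE 0.13). Tbr1 ran from 52.9 to 64.6 CPM in N/- and from 31.9 to 69.1 CPM in N/N mice, so its N/N mice covered the whole range of the N/- mice. The median was 0.46 in males and 0.05 in females.

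The summed level of the cortical list, in which Fezf1 had 0 to 4 counts per mouse, was 1229 to 1519 CPM in N/- (median 1425) and 1059 to 1559 CPM in N/N mice (median 1193). The N/N mice 27, 26 and 18, all males, had the lowest sums, 1059 to 1091 CPM, and low levels of Pak7 (29.8 to 32.9 CPM) and Lrrc55 (9.55 to 10.8 CPM). N/N mouse 22, also a male, lay within the same ranges of both genes at a higher sum, 1328 CPM. N/N mouse 29, whose sum was 1103 CPM, had more Pak7 and Lrrc55 than N/N mouse 31, whose sum was 1385 CPM. Hkdc1 was lowest among N/N mice in mice 26 and 27, at 1.345 and 1.859 CPM, and stood at 2.301 CPM in mouse 18. The part of cortical RNA in the levels of these genes was not tested. N/N mouse 28 had the highest sum of all, 1559 CPM, with 37.7 CPM of Pak7 and the highest Hkdc1 of its group. Among N/- mice, mouse 30 had the lowest sum, 1229 CPM, and the highest Pak7, 45.0 CPM, and mouse 19 had the highest sum, 1519 CPM, and the highest Hkdc1 and Lrrc55. With the log2 sum as a further covariate, a fit chosen after seeing the data, Cyfip2 (-0.83, SE 0.07) and En2 (1.25, SE 0.18) were called and no other gene. Pak7 then stood at 0.24 (SE 0.05, adjusted p = 0.16), Hkdc1 at 0.59 (SE 0.13, adjusted p = 0.191) and Lrrc55 at 0.31 (SE 0.07, adjusted p = 0.202 by edgeR).

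On the low side, 12 of 13 genes of meninges and fibroblasts lay below 0, with a median of -0.23. An unadjusted p under 0.05 was reached by 5, all lower, against 2.03% of all genes. Among them were the collagen gene Col1a1 (-0.40, SE 0.12), the growth factor gene Igf2 (-0.28, SE 0.09), the retinoic acid synthesis gene Aldh1a2 (-0.51, SE 0.18) and the proteoglycan gene Lum (-0.41, SE 0.17). Col1a1 ran from 2.95 to 5.54 CPM in N/- and from 3.70 to 6.14 CPM in N/N mice. In the first set 11 of the 13 lay above 0, with a median of 0.21. The summed level was 185 to 261 CPM in N/- and 195 to 282 CPM in N/N mice, so the groups overlapped over most of their range. Of 18 endothelial and mural genes 17 lay below 0 (median -0.07), led by the smooth muscle genes Acta2 (-0.34, SE 0.12) and Tagln (-0.20, SE 0.07) and the pericyte receptor gene Pdgfrb (-0.14, SE 0.06).

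Other lists had 0 genes past the threshold. Thalamic, septal and pallidal markers had a median of -0.15, with Tcf7l2 at -0.19 (SE 0.09) and Nkx2-1 at -0.22 (SE 0.11), and 12 of 13 lay below 0. In the first set 10 of the 13 lay above 0, with a median of 0.37. Ependymal markers had a median of -0.16, with all 11 below 0 and Hdc at -0.24 (SE 0.23), and in the first set all 11 lay above 0, with a median of 0.32. Choroid plexus markers had a median of -0.04, with Clic6 at -0.18 (SE 0.09), against a median of 0.35 in the first set, where all 10 lay above 0. The 5 tested red blood cell genes had a median of -0.31, with Hba-a1 at -0.33 (SE 0.17) and Hba-a2 at -0.31 (SE 0.17), near-identical copies between which reads may be split. The part of these tissues in the differences of other genes was not tested.

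Glial lists held no gene that passed. Astrocyte genes had a median of -0.06, with Slc1a3 at -0.09 (SE 0.05) and Sox9 at -0.17 (SE 0.10). Myelin genes had a median of 0.0034, with Sox10 at -0.07 (SE 0.11), and precursor genes one of -0.06, with Bcan at -0.08 (SE 0.04) and Cspg4 at -0.13 (SE 0.08). Microglial genes had a median of -0.04, with Tyrobp at -0.18 (SE 0.07, unadjusted p = 0.016) and C1qc at -0.09 (SE 0.06). Interferon-response genes had a median of -0.09, with 3 of 12 above 0, and the X-linked Ddx3x stood at 0.04 (SE 0.04).

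Within the sexes few genes passed. In males (3 N/- and 4 N/N) 1 of 16904 genes passed (0.00592%; 5.12% at an unadjusted p under 0.05), Cyfip2 at -0.71 (SE 0.09). In females (3 N/- and 6 N/N) 2 passed (0.0118%; 2.38% unadjusted), Cyfip2 at -0.84 (SE 0.09) and En2 at 1.41 (SE 0.21). En2 in males stood at 1.20 (SE 0.22, adjusted p = 0.124 by edgeR). Pak7 stood at 0.31 (SE 0.06) in males and 0.22 (SE 0.06) in females, Hkdc1 at 0.81 (SE 0.20) and 0.74 (SE 0.18), and Lrrc55 at 0.46 (SE 0.08) and 0.22 (SE 0.07). The difference between sexes, tested as an interaction, passed for 0 of 16904 genes in edgeR and 0 in limma voom, with 403 (2.38%) at an unadjusted p under 0.05. For Lrrc55 it was 0.24 (SE 0.10, unadjusted p = 0.0353), the only one of the 5 genes under 0.05.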

How the data were processed

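Whole-number counts of reads per Entrez gene were deposited by the authors, 1 table per sequencing run, without normalization; the tools listed per the submitters' processing notes are FastQC 0.11.3, Subread's featureCounts, edgeR 3.8.6 and limma 3.22.7, with the build mm10. TopHat and HTSeq appear in the series text instead, and which pair made the counts is not settled by these sources. Libraries came from a stranded mRNA kit and 50 bp single-end reads, per the labels' protocols; use of strand and the handling of reads with several matches are not stated in them. Counts of near-identical genes are uncertain.

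Of 27179 gene identifiers, 25275 matched a RefSeq symbol (GRCm38.p6), while those without a symbol (0.73% of all counts) were retained. The 2 runs of a mouse, whose counts differed by a chi-square per degree of freedom of 1.14 to 1.23, were summed and counted as 1 replicate. The filterByExpr function left 16665 of the 22600 genes that had a count, TMM scaled them (factors 0.972 to 1.03), and they were tested in edgeR 4.0.16 (R 4.3.3) by the robust quasi-likelihood F test with sex and genotype as terms and Benjamini-Hochberg adjustment at 0.05. SE is the absolute log2 fold change over the square root of F. Only these 16 mice entered the main fit. The sexes were compared in a fit with 4 groups, and the sets in a fit over all 32 mice. Permutation tests used the mean log2 CPM with a prior count of 2. Alternatives were limma 3.58.1 voom, DESeq2 1.42.0, other scalings and filters, single runs, cage terms, a spread shared over both sets, each mouse left out, and, added after seeing the data, a cortical covariate and the 11 mice of mixed cages with no cage term. The gene fit was tested on simulated counts.

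The mice, the 34 gene lists (537 symbols, 536 matched) and the naming rule were chosen with earlier results of these data known. Named were the WAVE complex, genes past the threshold, those with the smallest p here and in the first set, up to 4 per list, the neighbours of Cyfip2 and leading genes of the earlier comparison. Lists had no test of their own and are given by counts and medians. Some single genes are not reported here.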

Additional observations from a re-analysis of the deposited data

Results flagged for a closer look

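In 98 groups of values (15 genes, 33 summed lists and the mitochondrial share, each in 6 N/- and 10 N/N mice) a mouse was looked for whose gap to the nearest other exceeded Dixon's limit (0.625 of the range for 6 mice, 0.466 for 10). Chance alone gives about 1 in 20 groups; 15 were found, over lists that share libraries and some genes.

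N/- mouse 17, a male, stood apart in 5: Cyfip1 at 96.5 CPM (other N/- mice 85.7 to 88.9), Brk1 at 146 CPM (168 to 179), the summed indirect-pathway markers at 2260 CPM (2610 to 2720), the opioid list, which shares Penk with them, at 1270 CPM (1520 to 1600.0), and thalamic, septal and pallidal markers at 196 CPM (108 to 131). Penk alone was at 1107 CPM in mouse 17 and at 1363 to 1440 CPM in the other N/- mice. The indirect-pathway and opioid flags therefore rest largely on this gene. Without a flag, mouse 17 was also the lowest N/- mouse for other striatal lists. Its sums were 15850 CPM for projection neurons as a whole, 1134 CPM for the direct pathway and 4924 CPM for dopamine signalling.

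N/- mouse 30, a female, stood apart in 3: Cyfip2 at 539 CPM (620.0 to 648), excitatory synapse genes at 8180 CPM (8820 to 9160) and immediate early genes at 666 CPM (354 to 465). N/- mouse 25 had 916 CPM of corticosteroid-responsive genes (686 to 740.0).

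N/N mouse 28 was the highest for oxidative phosphorylation at 5590 CPM (4500.0 to 5040), cholesterol synthesis at 1580 CPM (1200.0 to 1330), red blood cell genes at 314 CPM (243 to 279) and interferon-response genes at 75.5 CPM (55.6 to 66.2). N/N mouse 31 was the highest for the WAVE complex at 3030 CPM (2430 to 2750) and the lowest for ependymal markers at 12.1 CPM (29.3 to 48.3). What sets these mice apart was not tested.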

How the results depend on the processing

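The groups share no replicate number; pairing by cage was run instead. Of 5 called genes, 2 were called with the spread shared over both sets, 2 without the sex term, 2 in the F7 run alone and 2 with the cortical covariate; with cage as a block 1, En2 then at 1.22, and in the same 11 mice with no cage term also 1, En2 at 1.20; DESeq2 called 49; leaving out 1 mouse gave 2 to 11. The other 7 settings gave 4 to 6. Cyfip2 ran from -0.83 to -0.74 and En2 from 1.20 to 1.35 over 14 settings, and from -0.80 to -0.74 and 1.25 to 1.41 with a mouse left out. Counts of the other comparisons stayed within 1.5 times under voom, other scaling and no filter. With the cortical covariate the cortical list's median was 0.0015, by construction, and that of chaperones -0.0785; the patterning list's was 0.25 in the F4 run. With a mouse left out the opioid median ran from -0.168 to -0.035 and the myelin median from -0.116 to 0.0601, the lowest values without N/- mouse 32 and N/- mouse 30, in this order. Near 0, signs turned for Cyfip1 (-0.018 in the F7 run; -0.0145 to 0.0202 with a mouse left out), Nckap1l (-0.00735 in the F4 run), Wasf1 (0.0288 with cage as a block, 0.0176 in these mice without it; -0.0505 to 0.00125), Wasf3 (0.0153, 0.0148) and Abi3 (0.0047 with cage as a block; -0.0784 to 0.0236). The same held for Lingo2 (-0.0411 in the F7 run; -0.0152 to 0.0675), Tafa2 (0.000176 in the 11 mice), 3110039M20Rik (0.00744 in the F4 run), Dtwd2 (-0.0366 in the F7 run, -0.0527 with cage as a block, -0.0274 in these mice without it) and Depp1 (0.0103 with the shared spread, 0.0758 in voom, 0.0642 with cage as a random effect, 0.0144 without the sex term, 0.071 in the F4 run; -0.0968 to 0.147). The cause was not tested. Genes near 1 CPM, such as En2 and Alpk3, are limited by counting error.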

Other observations

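Tested were 5 genes annotated as constant regions of immunoglobulins or T cell receptors, looked at after their values were seen. Of these, 3 had an unadjusted p under 0.05, beside 5.04% of all genes, and 0 passed in edgeR. As the class was picked by its values, the count is no support for a difference of the class. Ighm stood at 32.9 ± 7.7 CPM (SD, n = 6) in N/- and 23.9 ± 5.0 CPM (SD, n = 10) in N/N mice. Ighg2c stood at a log2 fold change of 0.66 (SE 0.21) and Trbc2 at 0.61 (SE 0.20). Ighd stood at -0.31 (SE 0.19) and Trac at -0.13 (SE 0.23), each under 1 CPM on average. In the first set Ighm stood at -0.12 (SE 0.24), Ighg2c at -0.02 (SE 0.43) and Trbc2 at -0.06 (SE 0.51).

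The genes that DESeq2 alone called were mostly higher in N/- mice. They include Kcnab3, a potassium channel subunit gene (0.53), Il17ra, an interleukin receptor gene (0.36), the protocadherin gene Pcdh7 (0.20), the perineuronal net gene Hapln4 (0.45) and Cplx3, a complexin of deep cortical cells (0.37). Their adjusted p in edgeR's quasi-likelihood test was 0.097 for Kcnab3, 0.0917 for Il17ra, 0.097 for Pcdh7, 0.181 for Hapln4 and 0.169 for Cplx3.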
